A study of Mus musculus with 6 samples.

Results

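Caspases are proteases that cut other proteins after aspartate residues, and they carry out apoptosis and some forms of inflammatory cell death. Initiator caspases are switched on when they are gathered on a platform: caspase-9 on the apoptosome built by Apaf1, caspase-8 on ligand-bound death receptors and caspase-2 on the PIDDosome, while caspase-1 is gathered on inflammasomes. Executioner caspases, such as caspase-6, are cut by initiators, and the pathway is held back by Xiap, which binds and inhibits caspases, and by Cflar (c-FLIP), a caspase-8 relative that competes for the receptor complex. The 8 genes described here are Casp1, Casp2, Casp6, Casp8, Casp9, Apaf1, Xiap and Cflar, chosen by gene name from 31880 named genes. They hold 80 of the 141569 isoforms used, and 6 of the 8 reached the minimum for a test, a condition mean of 1 FPKM or more, as did 13268 genes in all.

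PolyA RNA was sequenced in mouse embryonic stem cells of the clonal line TT-FHAgo2, where doxycycline controls expression of Argonaute 2 (Ago2), the protein that loads microRNAs and brings them to their target transcripts. All cells had been propagated in 0.1 µg/mL doxycycline. One condition was then taken off the drug for 96 h (2 libraries), and the other was raised to 2.5 µg/mL for 48 h (2 libraries), a dose that the labels call wild type for Ago2. The conditions differ in both the drug and the time, and these cannot be told apart. The 2 remaining samples of the series, to which spike-in RNA was added, were not analysed here. FPKM is the number of fragments on a transcript, scaled to its length and to the library total, and it was summed over the isoforms of a gene. Each log2 change is the value without doxycycline minus the value with it after 0.5 was added to each FPKM, so that changes of low genes are understated. A gene was called where limma, a linear model fitted across all genes, gave a Benjamini-Hochberg adjusted p under 0.05, and errors are SD over n = 2 libraries unless named otherwise.

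Ago2, the gene under control, stood at 28.7 and 28.8 FPKM without doxycycline, against 35.2 and 36.7 FPKM with it. It was lower without doxycycline by -0.32 ± 0.08 (log2, SE, limma adjusted p = 0.0292), and no subset of 3 libraries kept the call (adjusted p 0.0779 to 0.207). The size of the Ago2 change also depended on the processing, while its direction held. It was -0.16 (limma adjusted p = 0.149) with each library rescaled to the same total (TPM). With the most abundant isoform alone it was -0.18 (0.413), and with annotated isoforms only -0.82 (0.0517). The table carries 1 gene name for all Ago2 transcripts, so transcripts of the transgene and of the gene itself were not told apart. All 7 stem cell markers examined, such as Pou5f1, Sox2 and Nanog, were present, with a summed level of 4043 to 4596 FPKM without doxycycline and 3808 to 4277 FPKM with it. Nanog was called higher without doxycycline (log2 change 0.54, limma adjusted p = 0.0386) and Zfp42 lower (-0.49, 0.0209). The other stem cell markers were not called. Among 6 macrophage markers only Cd68, a lysosomal membrane protein, passed 1 FPKM, at a mean of 12.4 FPKM without doxycycline and 7.93 FPKM with it, while Lyz2 and Adgre1 were listed at 0. Among 7 fibroblast markers only Thy1 passed 1 FPKM, and among 6 mesendoderm and endoderm markers only Gsc and Gata4 did. Gsc and Gata4 passed it only without doxycycline, at means of 1.28 and 1.33 FPKM, against 0.312 and 0.656 FPKM with it. The others were too low to be tested. Mixl1 and Sox17 were higher without doxycycline, at means of 0.331 and 0.0417 FPKM, against 0.121 and 0.0109 FPKM with it. T and Gata6 were lower without it, at means of 0 and 0.0417 FPKM, against 0.0893 and 0.0745 FPKM with it. The summed level of the 6 mesendoderm and endoderm markers was 2.996 to 3.061 FPKM without doxycycline and 1.07 to 1.46 FPKM with it. The part of these markers in the results below was not tested. The 2 libraries numbered 1 showed steps of whole reads at low FPKM and hold 46.7 M fragments without doxycycline and 46.5 M with it, while the depth of the libraries numbered 0 is unknown. Whether each library is a separate culture is not stated in the labels. The p-values therefore reflect the spread between these samples alone, which limma shares in part across genes and which may be technical.

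Because Ago2 acts through microRNAs, the 3′ untranslated regions of the members were read for matches to the seeds of microRNA families. A seed is bases 2 to 8 of a microRNA, the part that pairs with a target. The miR-291a-3p and miR-302 family is the dominant family of mouse embryonic stem cells, and the miR-17 family shares most of its seed with it, moved by 1 base. The mature sequences below are from RefSeq (GRCm38.p6), with the seed in capitals, and the 2 families can be compared by eye.
miR-291a-3p: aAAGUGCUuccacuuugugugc
miR-294-3p: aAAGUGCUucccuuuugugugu
miR-302b-3p: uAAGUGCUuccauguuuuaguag
miR-17-5p: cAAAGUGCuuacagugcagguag

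Casp2 was the only member with matches of 7 bases to the miR-291a-3p and miR-302 family. Its 3′ untranslated region is 2031 nt long (GENCODE M21, build GRCm38, chromosome 6, plus strand) and held 3 such matches, of which those starting 811 and 1603 bases after the stop codon are of the type that pairs with seed bases 2 to 7 and has an A opposite base 1 (GCACTTA). The match starting at base 1081 pairs with bases 2 to 8 (AGCACTT). A match of 7 bases to the miR-17 seed (GCACTTT) started at base 1512 and contains a 6-base match to the other family. The windows of 30 bases below show these matches in capitals, with the coordinates of the capitals, beside those of the other called or low members that hold one for miR-17.
Casp2 site at base 811 (chr6:42281288-42281294): tccttactgtggcttctgcatGCACTTAca
Casp2 site at base 1081 (chr6:42281558-42281564): ccatatgtgatataacctagaAGCACTTgt
Casp2 site at base 1603 (chr6:42282080-42282086): cttactgatatccagtaactgGCACTTAct
Casp2 miR-17 site at base 1512 (chr6:42281989-42281995): tgcttactgcaggctgtaatgGCACTTTtg
Casp8 miR-17 site at base 38 (chr1:58846792-58846798): cagttcacatggcttatctgtGCACTTTtg
Apaf1 miR-17 site at base 1608 (chr10:90989836-90989842, minus strand): ttgtttgtcaggttgaggaacCACTTTAca
Xiap miR-17 site at base 789 (chrX:42105773-42105779): agaggggcttatagagcccttCACTTTAtt
Xiap miR-17 site at base 1189 (chrX:42106173-42106179): ctagttgaagcctgcctaagtCACTTTAct

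The matches were sought on the transcript strand only, and all coordinates of sites are GRCm38. Of 11494 tested genes with an annotated region, 20.7% held a match of 7 or 8 bases to the miR-291a-3p and miR-302 family, 21.7% to miR-17, 16.9% to let-7 and 16.1% to miR-122, a microRNA of liver taken as a control. Casp8 and Xiap each held a 6-base match to the miR-291a-3p and miR-302 family, in Casp8 within the printed miR-17 site. Cflar, whose region is 4962 nt long, held 1 match of 7 bases to let-7, and Casp1, Casp6 and Casp9 held none of 7 or 8 bases to any of the 4 families. For the liver control, Casp8 held a match of 8 bases and Apaf1 and Xiap 1 each of 7 bases. A match is a description of these letters and not a shown binding site.

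**Figure D1:**
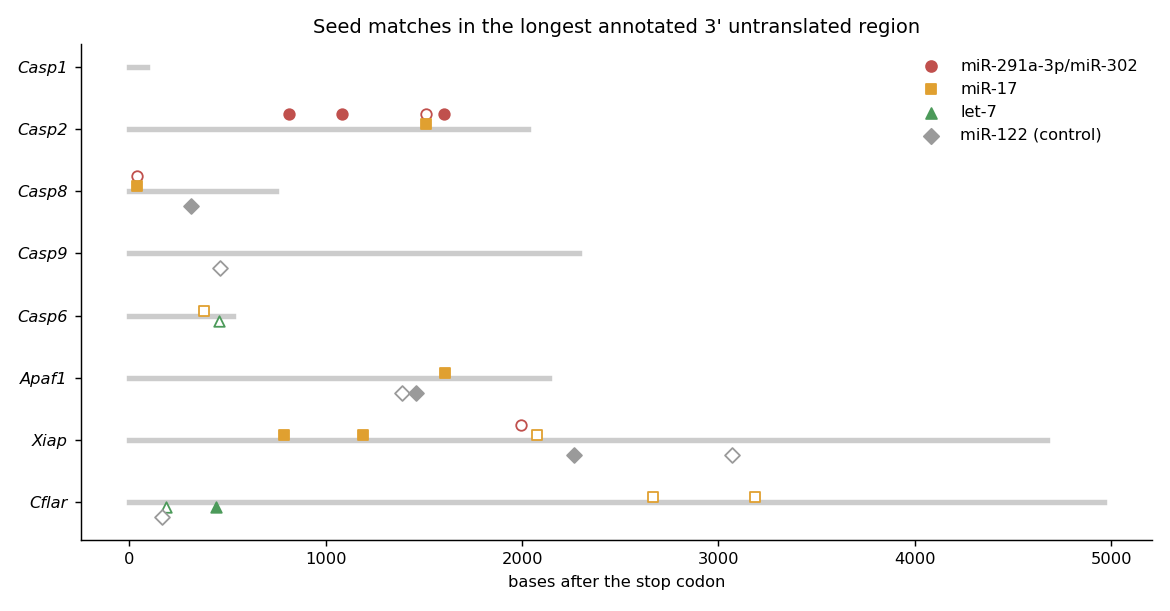
Seed matches along the 3′ untranslated region (the longest one annotated) of every member (grey bars, x axis in bases after the stop codon). Filled marks are matches of 7 or 8 bases and open marks 6-base matches. The 3 filled circles of Casp2, between 811 and 1603 bases, are the only filled marks of the miR-291a-3p and miR-302 family.

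Casp2, Apaf1 and Xiap were higher without doxycycline, Casp6, Casp9 and Cflar did not pass the test, and Casp8 and Casp1 were too low to be tested. Of the 6 tested members 3 were called, and no member was called lower. Across all 13268 genes 5351 (40.3%) were called, 2578 (19.4%) higher and 2773 (20.9%) lower without doxycycline, so the members' share called in either direction lies near that of all genes. Without the library with doxycycline numbered 0 or 1 the count over all genes was 3354 or 3116. The 4 libraries separated by condition without overlap in 3 of the 6 tested members and in 73.1% of all tested genes. The median log2 change was 0.20 over the 6 members and -0.055 over all genes. On the TPM scale the median over all genes moved to 0.10 and 67.7% of the calls were higher, against 48.2% in FPKM, and with the condition medians set equal the median was -0.12 and 39.0% of the calls were higher. Under both scalings Casp2, Apaf1 and Xiap kept their direction. In TPM 4 members were called (Casp8 added), and with equal medians 2 were (Xiap lost, limma adjusted p = 0.0705). Casp8 passed the minimum in TPM only through the libraries without doxycycline, so its call there is no support.

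**Figure D2:**
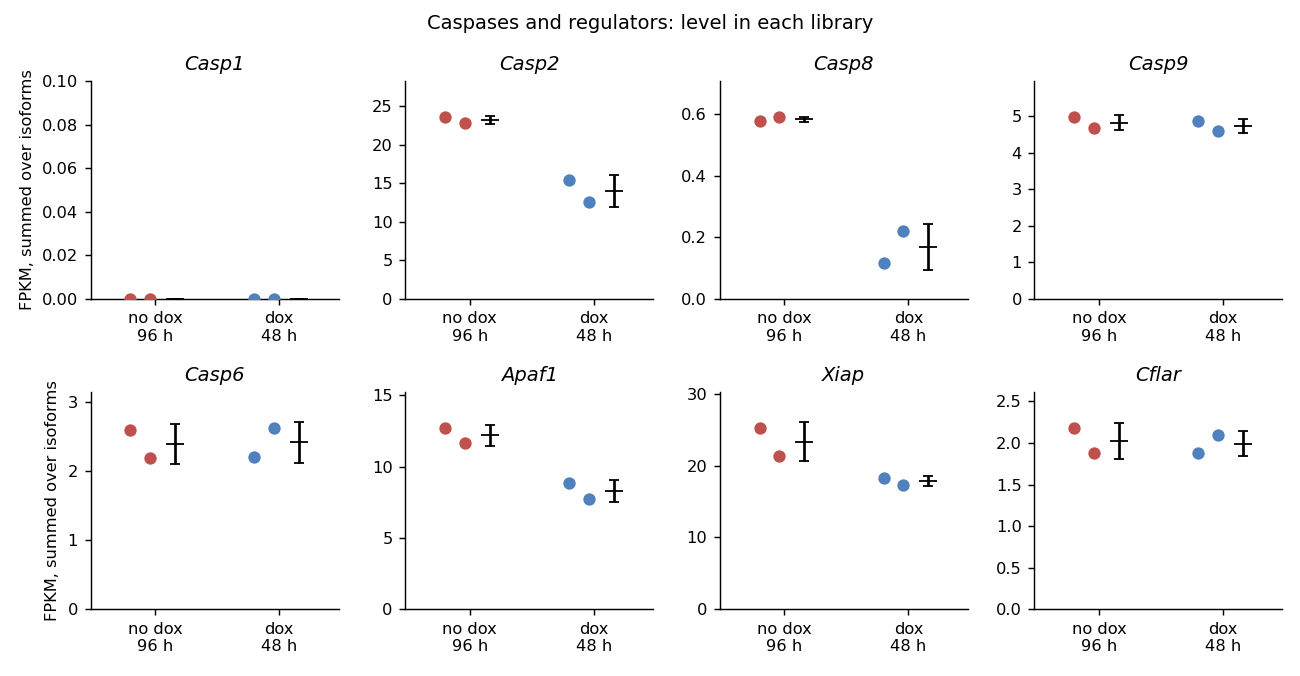
Level of each of the 8 members (y axis, FPKM summed over isoforms, from 0) in the 2 libraries without doxycycline (red) and the 2 with it (blue), with the mean and SD at the right of each pair. Casp2, Apaf1, Xiap and Casp8 separate by condition, Casp6, Casp9 and Cflar overlap, and Casp1 is listed at 0.

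Among the initiators, Casp2 had the highest level, and of those tested, Casp2 and Casp9, it was the 1 called. Caspase-2, one of the most conserved caspases, answers to DNA damage and to extra centrosomes. Casp2 (NCBIM37 chromosome 6, 42214945 to 42232543, plus strand) had 23.6 and 22.9 FPKM without doxycycline, against 15.5 and 12.5 FPKM with it. Both values without the drug lie above both with it, and the pair with doxycycline is spread more widely. The means were 23.2 ± 0.51 FPKM without doxycycline and 14.0 ± 2.07 FPKM with it, a ratio of 1.66. The log2 change was 0.72 ± 0.12 (SE, 95% interval 0.41 to 1.03, limma adjusted p = 0.0106). In the libraries numbered 1 these values stand for 2920 reads without doxycycline and 1681 reads with it. The call was lost when low genes were kept in the test (31880 genes, adjusted p = 0.111).

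Within Casp2, the full-length coding transcript was higher without doxycycline. Casp2 had 17 isoforms, of which 1 matched a protein-coding transcript: the form of 3529 nt with 11 exons and a coding length of 1359 nt, to which the 3′ untranslated region read above belongs. This form had 19.1 and 17.2 FPKM without doxycycline, against 6.71 and 6.92 FPKM with it. The libraries of a condition lie close together and far from those of the other, and taken alone the form changed by 1.35 (log2, limma adjusted p = 0.0136 with coding isoforms tested and 0.0175 with each gene reduced to its top isoform). It made up 80.8% and 75.0% of the gene's FPKM without doxycycline, against 43.4% and 55.2% with it. The other 16 isoforms summed to 4.54 and 5.71 FPKM without doxycycline, against 8.75 and 5.61 FPKM with it, which overlap. Among them, a variant of 3662 nt that is closest to a transcript subject to nonsense-mediated decay had 0.556 and 0 FPKM without doxycycline, against 2.49 and 1.17 FPKM with it. A form of 2819 nt with a retained intron had 2.50 and 0 FPKM without doxycycline, against 3.36 and 1.41 FPKM with it. Both of these forms end at base 42232543 (NCBIM37), past the end of the coding form at 42232507, so the 3′ end of the gene is not covered by the coding form alone. Isoform FPKM are estimates that divide shared reads between overlapping transcripts, and no test was made on shares.

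**Figure D3:**
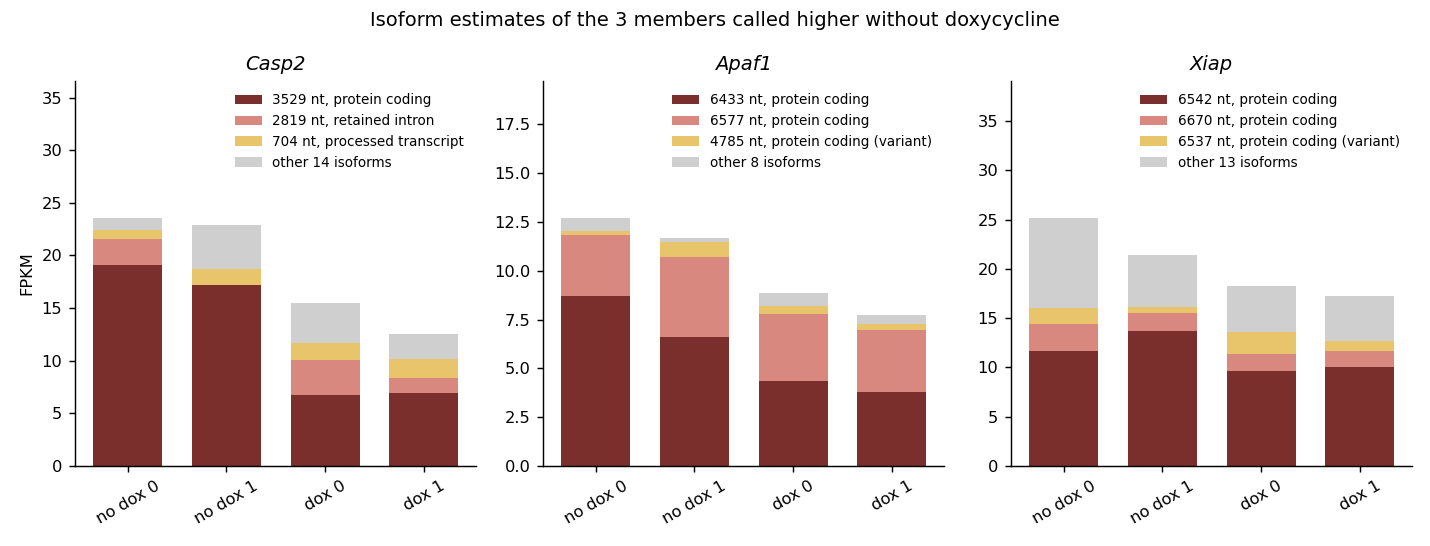
FPKM of the 3 most abundant isoforms and of the rest (stacked, y axis from 0) for Casp2, Apaf1 and Xiap in each library, those without doxycycline at the left and those with it at the right. The dark segment of Casp2, the coding form of 3529 nt, reaches 19.1 and 17.2 FPKM without doxycycline and 6.71 and 6.92 FPKM with it.

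The 3 genes below followed the pattern of Casp2 most closely across the 4 libraries, by the Euclidean distance between deviations of log2(FPKM + 0.5) from the gene's own mean, among 8764 protein-coding genes whose mean reached 5 FPKM in a condition, with predicted models, pseudogenes and small RNAs left out. They were BC028528 at a distance of 0.065, Nck2, an adaptor protein, at 0.067, and Kbtbd11 at 0.071. Kbtbd11 had 29.9 and 28.1 FPKM without doxycycline, against 18.3 and 15.5 FPKM with it. In all, 127 genes lay within a distance of 0.2. The likeness itself chose these genes, so no test is given for them.

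Casp8, the initiator at death receptors, was present at a low level. Casp8 (NCBIM37 chromosome 1, 58852276 to 58904347, plus strand) had 0.577 and 0.589 FPKM without doxycycline, against 0.116 and 0.221 FPKM with it. The conditions did not overlap, and the means were 0.583 ± 0.00899 FPKM without doxycycline and 0.169 ± 0.0739 FPKM with it, a ratio of 3.46. In the libraries numbered 1 these stand for 51 reads without doxycycline (exact Poisson 95% interval 38.0 to 67.1) and 19 reads with it (11.4 to 29.7), intervals that cover counting error only. The gene was below the minimum of 1 FPKM and was not tested. With no minimum the log2 change was 0.70 (limma adjusted p = 0.0852), and on the TPM scale it was 1.10 (limma adjusted p = 0.0180). In TPM the gene passed the minimum only through the libraries without doxycycline, where it was higher. The p on that scale therefore gives no support of its own. The coding form of 2031 nt held 92.1% and 100% of the FPKM without doxycycline, against 81.7% and 100% with it.

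Casp9, the initiator that Apaf1 activates, did not pass the test. Casp9 (NCBIM37 chromosome 4, 141349527 to 141371910, plus strand) had 4.98 and 4.69 FPKM without doxycycline, against 4.88 and 4.603 FPKM with it. The 2 conditions are interleaved, and the log2 change was 0.02 with a 95% interval of -0.22 to 0.27 (limma adjusted p = 0.850). Its coding form of 3897 nt had 4.03 and 3.88 FPKM without doxycycline, against 4.37 and 4.19 FPKM with it, and a variant of 3823 nt had 0.782 and 0.517 FPKM without doxycycline, against 0.381 and 0.313 FPKM with it. Both forms separate by condition, in opposite directions, and their difference was not tested. Casp9 overlaps Cela2a, an elastase gene on the other strand, which had 0.482 and 0.819 FPKM without doxycycline, against 1.41 and 1.62 FPKM with it, and whether the counting used strand is not given in the sources used here.

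Casp1, the inflammatory initiator that matures interleukin-1β, was listed at 0 in all 4 libraries. Its 1 isoform, of 1497 nt (NCBIM37 chromosome 9, 5298517 to 5307265, plus strand), had no read in either library numbered 1. With 0 reads, a level of up to 0.0487 FPKM without doxycycline and 0.0490 FPKM with it (3 reads, counting error only) could not be told from 0.

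Casp6, the executioner known for cutting lamin A, had 2.60 and 2.19 FPKM without doxycycline, against 2.21 and 2.63 FPKM with it. The ranges coincide, and the log2 change was -0.01 with a 95% interval of -0.36 to 0.34 (limma adjusted p = 0.947). The gene (NCBIM37 chromosome 3, 129604343 to 129617021, plus strand) rests on few reads, 131 without doxycycline and 156 with it in the libraries numbered 1. Its coding form of 1456 nt held 100% of the level in 3 libraries and 90.2% in the library with doxycycline numbered 0.

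Apaf1, the scaffold of the apoptosome that assembles when cytochrome c leaves mitochondria, was higher without doxycycline. Apaf1 (NCBIM37 chromosome 10, 90452056 to 90545516, minus strand) had 12.7 and 11.7 FPKM without doxycycline, against 8.88 and 7.75 FPKM with it. The conditions did not overlap, and the means were 12.2 ± 0.73 FPKM without doxycycline and 8.31 ± 0.80 FPKM with it, a ratio of 1.47. The log2 change was 0.53 ± 0.10 (SE, 95% interval 0.26 to 0.80, limma adjusted p = 0.0165). Leaving out the library without doxycycline numbered 0 gave 0.47 (adjusted p = 0.0610) and leaving out the library with doxycycline numbered 1 gave 0.44 (adjusted p = 0.0748). The call was also lost with low genes kept (adjusted p = 0.113), with annotated isoforms only (0.53, adjusted p = 0.0536) and with each gene reduced to its top isoform (0.83, adjusted p = 0.0504).

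Of the 11 Apaf1 isoforms, 2 coding forms of 27 exons carried most of the level, and their estimates differed between conditions in unlike ways. The form of 6433 nt had 8.71 and 6.61 FPKM without doxycycline, against 4.38 and 3.77 FPKM with it. The form of 6577 nt, with the same coding length of 3750 nt, had 3.10 and 4.09 FPKM without doxycycline, against 3.40 and 3.20 FPKM with it. The first separates by condition and the other overlaps. The 6 coding forms together had 12.0 and 10.8 FPKM without doxycycline, against 7.89 and 7.16 FPKM with it, and they were called when taken alone (log2 change 0.57, limma adjusted p = 0.0372).

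Xiap, the inhibitor that binds caspase-9 and executioner caspases, was the third member called, with the smallest change of the 3. Xiap (NCBIM37 chromosome X, 39412856 to 39462833, plus strand) had 25.2 and 21.4 FPKM without doxycycline, against 18.3 and 17.3 FPKM with it. The conditions did not overlap, and the spread was wider without the drug: 23.3 ± 2.71 FPKM without doxycycline and 17.8 ± 0.69 FPKM with it, a ratio of 1.31. The log2 change was 0.38 ± 0.11 (SE, 95% interval 0.10 to 0.65, limma adjusted p = 0.0449). Leaving out the library without doxycycline numbered 0 gave 0.26 (adjusted p = 0.146), and leaving out those with doxycycline numbered 0 and 1 gave 0.41 (adjusted p = 0.107) and 0.34 (adjusted p = 0.181). The call was also lost under 5 of the other alternatives, with adjusted p from 0.0610 to 0.205.

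The main Xiap form, of 6542 nt and 8 exons with a coding length of 1491 nt, had 11.7 and 13.7 FPKM without doxycycline, against 9.68 and 10.1 FPKM with it. It was the largest of 16 isoforms in each library. All 5 coding forms together had 17.5 and 16.5 FPKM without doxycycline, against 13.6 and 12.7 FPKM with it. The conditions do not overlap in this sum, and its change was not called (0.36, limma adjusted p = 0.0665). A processed transcript of 5407 nt had 2.76 and 1.23 FPKM without doxycycline, against 0.566 and 0.836 FPKM with it.

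Cflar, the caspase-8 relative without protease activity, did not pass the test. Cflar (NCBIM37 chromosome 1, 58768351 to 58815728, plus strand) had 2.18 and 1.88 FPKM without doxycycline, against 1.88 and 2.099 FPKM with it. The ranges overlap, and the log2 change was 0.02 with a 95% interval of -0.30 to 0.34 (limma adjusted p = 0.909). Its level was spread over 18 isoforms. A variant of 6117 nt, which shares a junction with a coding transcript, had 1.21 and 0.580 FPKM without doxycycline, against 0.844 and 0.775 FPKM with it. The coding form of 2010 nt has a coding length of 648 nt, against 1446 or 1455 nt in the other 4 coding forms, and had 0.488 and 0.457 FPKM without doxycycline, against 0.581 and 0.775 FPKM with it. One more isoform of the same gene by its transcript identifier is listed as AC112968.1 and had 0.444 and 0.490 FPKM without doxycycline, against 0.526 and 0.625 FPKM with it. Adding it turned the direction (log2 change -0.03, limma adjusted p = 0.835).

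Set in order by FPKM, which is scaled to length, Xiap and Casp2 were highest, at 23.3 and 23.2 FPKM without doxycycline. Their libraries overlap there, while with doxycycline, at means of 17.8 and 14.0 FPKM, both Xiap libraries lay above both Casp2 libraries. Apaf1 came next, with 12.2 FPKM without doxycycline and 8.31 FPKM with it, followed by Casp9, with 4.83 FPKM without doxycycline and 4.74 FPKM with it. Casp6 and Cflar came after these, at 2.40 and 2.03 FPKM without doxycycline and 2.42 and 1.99 FPKM with it, and in each condition the lower Casp6 library lay just above the higher Cflar library. Casp8 and Casp1 were at the low end in both conditions.

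Of the caspases outside the 8 members, Casp4 and Casp14 stayed below 0.25 FPKM in every library, and Casp12 was listed at 0.

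**Figure D4:**
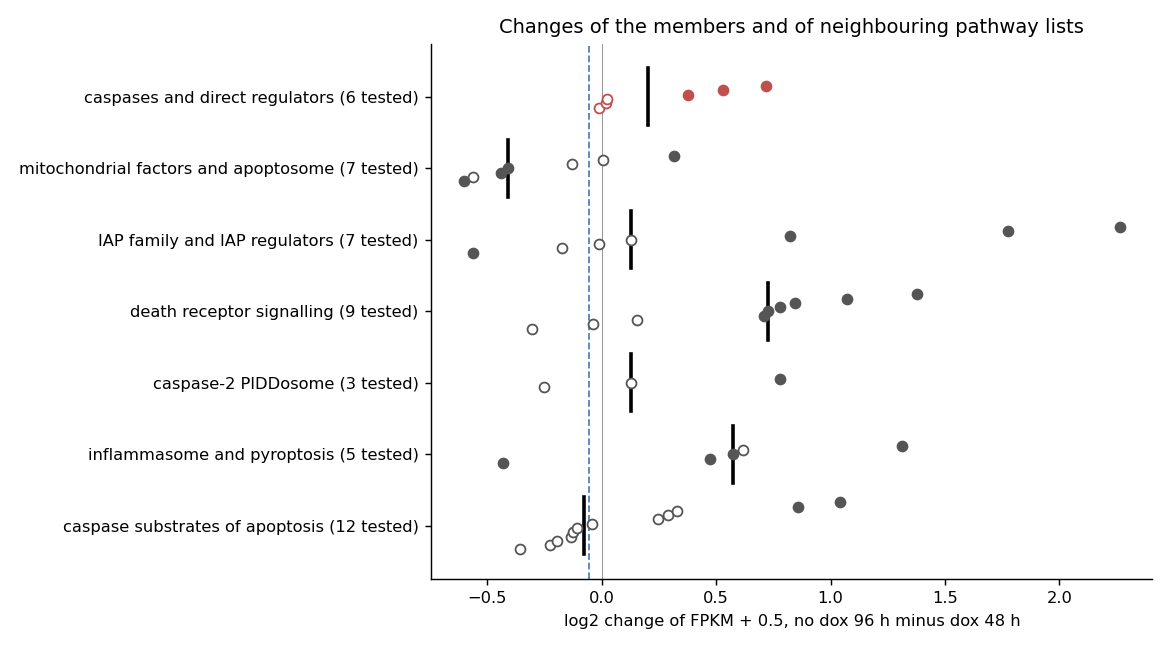
Log2 change of each tested gene (x axis, no doxycycline minus doxycycline) for the 6 tested members and 6 pathway lists. Filled marks are genes called by limma, black bars list medians and the dashed line the median of all genes (-0.055). The death receptor list has 6 filled marks to the right and none to the left.

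In the list of mitochondrial factors and apoptosome genes, 1 of 7 tested genes was called higher and 3 lower, with a median log2 change of -0.41. The shares over all tested genes were 19.4% higher and 20.9% lower. Cyct, the testis cytochrome c, had 2.23 and 2.09 FPKM without doxycycline, against 3.72 and 3.37 FPKM with it (log2 change -0.60, limma adjusted p = 0.0130, and 0.0546 without the library with doxycycline numbered 0). Diablo, which frees caspases from Xiap, had 20.9 and 22.7 FPKM without doxycycline, against 30.6 and 28.9 FPKM with it (log2 change -0.44, limma adjusted p = 0.0168). That call was lost without the library numbered 0 off the drug (adjusted p = 0.0614) or either library on it (adjusted p 0.0985 and 0.0624 for numbers 0 and 1). Cycs, the somatic cytochrome c, had 23.97 and 37.6 FPKM without doxycycline, against 38.5 and 51.7 FPKM with it, and did not pass (log2 change -0.56, limma adjusted p = 0.133). It was called without number 1 off the drug (-0.88, adjusted p = 0.0293), and without number 0 off the drug or number 1 on it the change was -0.24 (adjusted p = 0.386) or -0.35 (adjusted p = 0.346). The others called, named after their values were seen, were Htra2 (-0.41), another antagonist of Xiap, and Aifm1 (0.31), a mitochondrial flavoprotein. Aifm1 lost its call when any 1 library was left out (adjusted p 0.0616 to 0.198), and Htra2 did so except without the library numbered 0 off the drug (adjusted p 0.0507 to 0.0867 for the other 3).

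Among relatives and partners of Xiap, 3 of 7 tested genes were called higher and 1 lower, with a median log2 change of 0.13. Of all tested genes, 19.4% were called higher and 20.9% lower. Xaf1, a Xiap-binding protein known in human as an antagonist of XIAP, had 19.4 and 25.1 FPKM without doxycycline, against 4.22 and 4.18 FPKM with it. Its log2 change of 2.26 ± 0.14 (SE, limma adjusted p = 0.00196) was the largest of the list. Birc3 (cIAP2), a ubiquitin ligase of the tumour necrosis factor receptor complex, had 8.88 and 7.20 FPKM without doxycycline, against 1.87 and 2.11 FPKM with it (log2 change 1.77, limma adjusted p = 0.00233). Birc7 had 2.42 and 2.48 FPKM without doxycycline, against 0.903 and 1.49 FPKM with it (log2 change 0.82, limma adjusted p = 0.0259). Its call was lost without either library off the drug (adjusted p 0.0667 and 0.0655 for numbers 0 and 1) or without number 0 on it (0.05002). Birc5 (survivin), which acts in cell division and was named after its values were seen, was lower by -0.56 (adjusted p = 0.0377, and 0.111 without number 0 off the drug or 0.1502 without number 1 on it). The Naip genes were below 0.08 FPKM in every library.

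Around Casp8 and Cflar, 6 of 9 tested genes of death receptor signalling were called higher without doxycycline and none lower, with a median log2 change of 0.73. Over all tested genes 19.4% were called higher and 20.9% lower. Each of the 6 kept its call whichever library was left out, and 2 of them kept it when low genes were kept in the test. Tnfrsf1a, the receptor of tumour necrosis factor, had 7.64 and 7.98 FPKM without doxycycline, against 2.61 and 2.78 FPKM with it (log2 change 1.38, limma adjusted p = 0.00208). Tnfrsf10b, the TRAIL receptor of the mouse, had 17.9 and 17.6 FPKM without doxycycline, against 7.90 and 8.47 FPKM with it (log2 change 1.07, limma adjusted p = 0.00240). Tradd, the adaptor of Tnfrsf1a, had 8.22 and 7.91 FPKM without doxycycline, against 4.55 and 4.01 FPKM with it (log2 change 0.85, limma adjusted p = 0.00470). The kinase Ripk1, also counted with the PIDDosome, had 9.53 and 12.0 FPKM without doxycycline, against 5.59 and 6.50 FPKM with it (log2 change 0.78, limma adjusted p = 0.0137). Ripk3 (0.71) and the deubiquitinase Cyld (0.72) were the other 2, named after their values were seen. With the most abundant isoform alone 3 genes of the list were called higher. Ripk1 (limma adjusted p = 0.122), Ripk3 (0.0522) and Cyld (0.227) were not. Cyld was also not called with protein-coding isoforms only (limma adjusted p = 0.325). Ligands and the receptor Fas were below 0.3 FPKM, Tnf was listed at 0, and 3 genes of the list did not pass.

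Of the 3 genes listed with the PIDDosome, Ripk1 was the 1 called, against 19.4% called higher and 20.9% lower over all tested genes. Ripk1 is neither the scaffold nor the adaptor of the caspase-2 platform. Pidd1, the scaffold of that platform, had 11.1 and 12.4 FPKM without doxycycline, against 10.2 and 11.2 FPKM with it (log2 change 0.13, limma adjusted p = 0.359). Cradd, the adaptor that binds caspase-2, had 18.0 and 18.4 FPKM without doxycycline, against 22.4 and 21.3 FPKM with it (log2 change -0.26, limma adjusted p = 0.0570). Neither passed the test in these values. Pidd1 was called higher in TPM (0.29, adjusted p = 0.0466), and Cradd was called lower with equal condition medians (-0.32, adjusted p = 0.0298) and with isoforms of at least 500 nt (-0.26, adjusted p = 0.0490). The change of Pidd1 was 0.57 with the most abundant isoform alone (adjusted p = 0.161), and 0.05 and 0.06 (adjusted p 0.790 and 0.792) without number 1 off the drug and number 0 on it.

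Around Casp1, 3 of 5 tested inflammasome and pyroptosis genes were called higher and 1 lower, with a median log2 change of 0.57. Against these stand 19.4% higher and 20.9% lower among all tested genes. The list had 1 higher and 0 lower with annotated isoforms only, the most abundant isoform alone or protein-coding isoforms only. Gsdmd, the pore protein that caspase-1 cuts, had 7.14 and 7.65 FPKM without doxycycline, against 2.61 and 2.76 FPKM with it (log2 change 1.31, limma adjusted p = 0.00221). Nlrc4, a sensor, had 2.34 and 2.23 FPKM without doxycycline, against 1.48 and 1.27 FPKM with it (log2 change 0.57, limma adjusted p = 0.0205). Its call was lost without number 0 or 1 off the drug (adjusted p 0.0732 and 0.0523) or number 1 on it (0.0858). Gsdme, a pore protein cut in apoptosis, had 6.47 and 2.82 FPKM without doxycycline, against 2.13 and 3.25 FPKM with it, and was not called (log2 change 0.61, limma adjusted p = 0.250). With isoforms of at least 500 nt only, the change was -0.0252 (limma adjusted p = 0.875). The value reported also depended on the library off the drug numbered 0: without that library the change was 0.08. Without number 1 off the drug it was 1.15 (adjusted p = 0.0257), and without number 0 on it 0.36 (adjusted p = 0.498). The DNA sensor Aim2 (0.47) and the adaptor Pycard (-0.43) were the other calls, named after their values were seen. Without a library on the drug the p of Aim2 was 0.0566 (number 0) or 0.0511 (number 1), and that of Pycard was 0.0904 or 0.112, and 0.103 without number 0 off it. Il1b was listed at 0.

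Downstream, 2 of 12 tested caspase substrates were called, both higher without doxycycline, and the median log2 change was -0.076. All tested genes had 19.4% called higher and 20.9% lower. Gsn, an actin-severing protein, had 4.96 and 4.17 FPKM without doxycycline, against 1.85 and 2.07 FPKM with it (log2 change 1.04, limma adjusted p = 0.00497). Lmna, the lamin that caspase-6 cuts, had 18.3 and 21.5 FPKM without doxycycline, against 10.7 and 10.8 FPKM with it (log2 change 0.86, limma adjusted p = 0.00491). Dffb, the nuclease that cuts DNA in apoptosis, had 4.05 and 5.06 FPKM without doxycycline, against 5.67 and 6.21 FPKM with it and was not called (log2 change -0.36, limma adjusted p = 0.0842). Without number 0 off the drug the change was -0.21 (adjusted p = 0.279), without number 1 off it -0.50 (adjusted p = 0.0460), and with protein-coding isoforms only -0.63 (adjusted p = 0.0433).

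**Figure D5:**
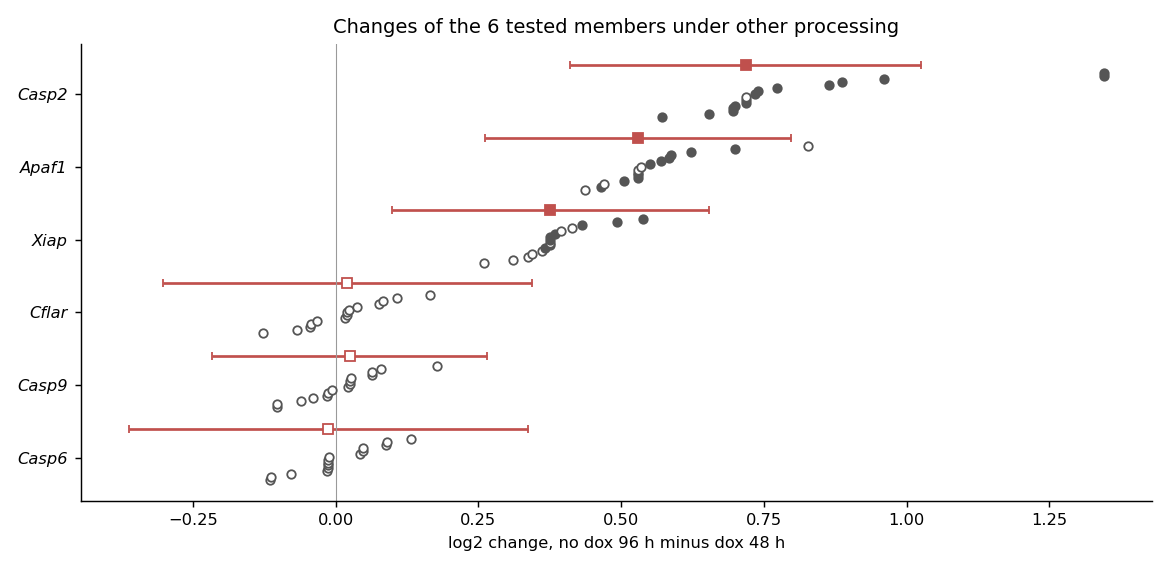
Log2 change of the 6 tested members (x axis, no doxycycline minus doxycycline): red squares with 95% intervals are the values reported and grey circles the alternatives, filled where limma called the gene. The circles of Casp2 lie between 0.57 and 1.35, those of Apaf1 between 0.44 and 0.83 and those of Xiap between 0.26 and 0.54, while those of Casp6, Casp9 and Cflar lie on both sides of 0.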

How the data were processed

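FPKM values per isoform were deposited by the authors, made with TopHat2 2.0.9 and Cufflinks 2.1.1 on NCBIM37, per the submitters' processing notes. Exon lengths and coordinates came from the deposited Cuffmerge annotation. Isoforms of at least 200 nt that matched (class code =) or shared a junction with (class code j) a named transcript were summed per gene. All 80 member isoforms were used. Symbols turned into dates (25) were restored. The test was run on genes that reached a mean of 1 FPKM in 1 of the 2 conditions, using limma 3.58.1 (trend, two-sided, R 4.3.3) on log2(FPKM + 0.5), with Benjamini-Hochberg adjustment over 13268 genes at 0.05. With 2 libraries against 2, an exact permutation test cannot go below p = 0.333. Members, lists and the rule for named genes (all members, the other caspases, the 3 largest changes of each other list and genes in 2 lists, and the 3 genes most like the most changed member) were chosen with earlier results of these data known. Some genes of these lists are not reported here. Lists are described by counts and medians. Read depth came from the steps of FPKM times effective length, whole within 0.1 read in 98.0% and 97.7% of low values of the libraries numbered 1, off and on the drug, and in 40.7% and 41.3% of those numbered 0. Seed matches were read from GENCODE M21 (GRCm38). The model and the step search were tested on simulated data. Alternatives were 2 pseudocounts, 2 filters, scaling, TPM, isoform choices, a replicate block and leaving out each library.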

Additional observations from a re-analysis of the deposited data

How the results depend on the processing

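The number of genes called was 5351 and moved to 1704 with no filter on low values, 2565 with annotated isoforms only (class code =), 2023 with the most abundant isoform alone, and 2253 with protein-coding isoforms only, an alternative added after the data were seen. It ranged from 3116 to 4237 with 1 library left out, 3354 and 3116 without the libraries with doxycycline numbered 0 and 1. With the library number as a replicate block it was 8123, and the block changed no call of a member (adjusted p of Casp2 0.00286, Apaf1 0.00309 and Xiap 0.00810). Outside the members, Cycs, Cradd and Dffb were called lower under the block (adjusted p 0.00383, 0.0175 and 0.0196), the caspase substrates had 5 genes called higher and 2 lower, against 2 and 0 without the block, and the death receptor list had 6 higher and 1 lower. The numbers are not those of the labels and may not pair the libraries. The deviations of same-numbered libraries correlated at 0.464 across genes. Casp2 kept its direction and call under every alternative except no filter (0.72, adjusted p = 0.111), with changes of 0.57 to 1.35. Apaf1 kept its direction and lost its call with no filter (0.53), class code = (0.53) and the most abundant isoform (0.83), and ranged from 0.44 to 0.62 with 1 library left out. Xiap kept its direction and lost its call with no filter (0.38), equal condition medians (0.31), class code = (0.39), the most abundant isoform (0.34) and protein-coding isoforms (0.36), and ranged from 0.26 to 0.49 with 1 library left out. Casp8 moved from 0.70 to 1.37 and 0.44 with pseudocounts of 0.1 and 1. It was called at 1.10 in TPM, where it passed the minimum only through the libraries without doxycycline. The uncalled members changed sign without a call: Casp6 to 0.13 in TPM, 0.0471 with the most abundant isoform or protein-coding isoforms, 0.0423 with the median change set to 0 (added after the data were seen) and -0.12 to 0.09 with 1 library left out. Casp9 changed to -0.0407 with equal medians, -0.0605 with class code =, -0.0065 with isoforms of at least 500 nt, -0.10 with the most abundant isoform or protein-coding isoforms and -0.0147 to 0.0631 with 1 library left out. Cflar changed to -0.0448 with equal medians, -0.13 with class code =, -0.0334 with the AC112968.1 isoform (added after the data were seen) and -0.0671 to 0.11 with 1 library left out. Of other genes, Gsdme changed sign to -0.0252 with isoforms of at least 500 nt and Aim2 to -0.0175 with the most abundant isoform or protein-coding isoforms. The causes were not tested. Over these alternatives the death receptor list had 2 to 6 genes called higher and 0 to 1 lower, and the inflammasome list 1 to 3 and 0 to 1. The list of Xiap relatives had 1 to 3 higher and 0 to 1 lower, and the PIDDosome list 0 to 2 and 0 to 1. The caspase substrates had 0 to 5 higher and 0 to 2 lower. With all 4 libraries kept, the mitochondrial list had 0 to 1 higher and 1 to 4 lower.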
